A study of Mus musculus with 8 samples.

Results

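The 10 genes described here encode enzymes and chaperones that modify and fold procollagen inside the endoplasmic reticulum. They were chosen by name for that role, by a rule that uses no measured value but was written with earlier results of these data known, and are 10 of the 52308 genes in the count table. They comprise the lysyl hydroxylases Plod1, Plod2 and Plod3, the catalytic subunits of prolyl 4-hydroxylase P4ha1, P4ha2 and P4ha3, the collagen chaperone Serpinh1, the prolyl isomerases Fkbp10 and Fkbp14, and Crtap, a helper protein of prolyl 3-hydroxylation. RNA was sequenced from uteri of ICR mice, an outbred strain; the animals were females 6-8 weeks old. Each mouse was staged from stained vaginal cells and killed in proestrus, estrus, metestrus or diestrus, with 2 libraries for each of the 4 stages and no other treatment named. The stage is the only labelled difference between the groups, and the stated purpose was to find genes that depend on the cycle. Each library was made from total RNA with a strand-preserving mRNA kit, and the labels do not say whether the 2 libraries of a stage came from separate animals. If they did not, the p-values below measure technical spread only.

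Collagen chains are made in the endoplasmic reticulum, where prolines and lysines are hydroxylated before the chains wind into a triple helix. Hydroxylated prolines hold the helix together at body temperature, and hydroxylated lysines carry sugars and later form the cross-links between molecules. Chaperones such as the product of Serpinh1 bind the finished helix until export, and isomerases speed the folding steps at proline. In the uterus, fibroblast-like cells of the endometrial stroma and smooth muscle of the myometrium lay down fibrillar collagen, and the tissue is remodelled with each cycle.

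Library totals ranged from 17863546 to 21896786 counts. The uterine genes Pgr, Esr1, Hoxa10 and Hoxa11 were present in all 8 libraries, while Hoxa13, a gene of the lower tract, stayed at or below 0.100 CPM (the count scaled to a fixed library size). Pgr was lowest in the estrus libraries (69.0 and 60.7 CPM) against a range of 196 to 480 CPM elsewhere. The 8 stromal markers had summed levels of 5725 and 4458 CPM in the estrus libraries and 3679 to 5482 CPM in the others, so the groups overlapped and estrus was not low. Within that list the genes went both ways. Thy1 (49.1 and 40.0 CPM) and Lum (483 and 336 CPM) were below all other libraries in estrus, and Pdgfrb (287 and 255 CPM) was above them. From proestrus to estrus 1 of the 8 was called higher and 2 lower, where 8.12% and 6.94% of all tested genes were. The median log2 fold change of the 8 was 0.20. The 6 macrophage markers summed to 899 and 978 CPM in estrus and 270 to 420 CPM elsewhere. The 8 epithelial markers summed to 3134 to 4956 CPM in proestrus and estrus and to 833 to 1246 CPM in metestrus and diestrus. Smooth muscle markers summed to 17339 CPM in diestrus library 1 and to 6734 to 10905 CPM in the other 7. The liver gene Alb stood at 650 and 477 CPM in estrus, 82.7 CPM in proestrus library 1 and at most 0.943 CPM in the other 5, and Apoa1 followed the same libraries (66.6, 56.3 and 11.0 CPM, and 0 elsewhere). The 5 red cell markers summed to 97.2 and 124 CPM in estrus and to 50.7 to 79.5 CPM elsewhere. Of the 4 tested, 3 were called lower in metestrus than in estrus, where 19.5% of all tested genes were. Endothelial markers summed to 414 to 757 CPM and mesothelial markers to 69.9 to 209 CPM, and in both lists the estrus libraries lay within the range of the others. Markers of fat (at most 14.8 CPM in sum) and of squamous epithelium (at most 13.7 CPM) were low throughout. The part of these markers in the results below was not tested, and in bulk tissue fewer cells of a type and less RNA per cell cannot be told apart.

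Most of the 10 genes were lowest in estrus and recovered in metestrus. Across the 4 stages, 7 of the 10 changed at an adjusted p under 0.05 (edgeR's quasi-likelihood test, Benjamini-Hochberg over all 18114 genes tested), where 39.1% of all tested genes did. The 7 were Plod2, P4ha2, P4ha3, Serpinh1, Fkbp10, Fkbp14 and Crtap. All 10 genes had passed the filter on low counts. The mean was lowest in estrus for 9 of the 10 genes (29.8% of all tested genes), Plod1 with its lowest mean in metestrus being the exception (26%), and for 7 of them both estrus libraries lay below all 6 others (15% of tested genes). The mean was highest in metestrus for 7 of the 10 (23.9% of tested genes), in proestrus for Plod2 and P4ha3 (23.5%), and in estrus for Plod1 (30.4%).

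**Figure D1:**
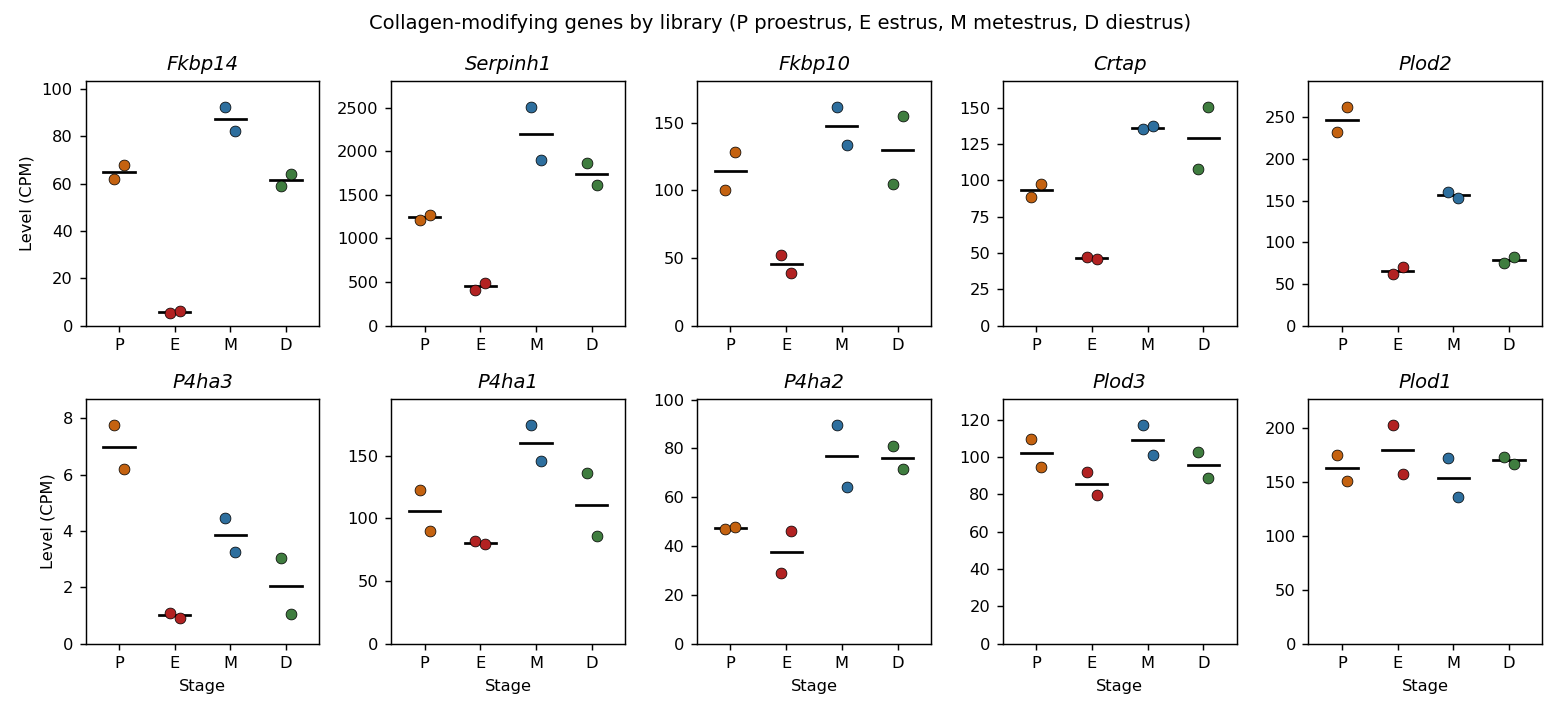
Level of each gene in CPM (vertical axes, each from 0) in the 4 stages (P, proestrus; E, estrus; M, metestrus; D, diestrus). Each point is 1 library and each bar the mean of 2; Fkbp14 falls to 5.55 and 6.19 CPM in estrus, whereas the Plod1 libraries overlap across the stages.

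From proestrus to estrus 6 of the 10 genes fell and 0 rose, while 6.94% of all tested genes fell and 8.12% rose. At an unadjusted p under 0.05 the counts were also 6 lower and 0 higher. DESeq2 likewise called 6 lower and 0 higher, and 3734 of all genes in either direction. The median log2 fold change of the 10 was -1.17, against 0.0068 for all tested genes. The count was smaller in each fit that left out a library of proestrus or estrus, and not in those that left out a library of another stage. The calls over all genes, 2727 with every library, were also fewer without a library of proestrus or estrus. None of the 6 genes changed sign in any of the 14 alternative settings. From estrus to metestrus 8 of the 10 rose and 0 fell, while 16.7% of all tested genes rose and 19.5% fell, and the medians were 1.40 and -0.046. DESeq2 also called 8 higher and 0 lower, and at an unadjusted p under 0.05 the counts were 9 and 0. Without estrus library 1 or metestrus library 1 this count was 5, and the calls over all genes numbered 2439 and 2548 against 6563. The step from metestrus to diestrus gave 1 call, lower Plod2, where 0.226% of tested genes were lower. The 2 diestrus libraries were the least alike of any stage. Between them 2713 tested genes were over 2-fold apart, against 837 to 1448 in the other stages.

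**Figure D2:**
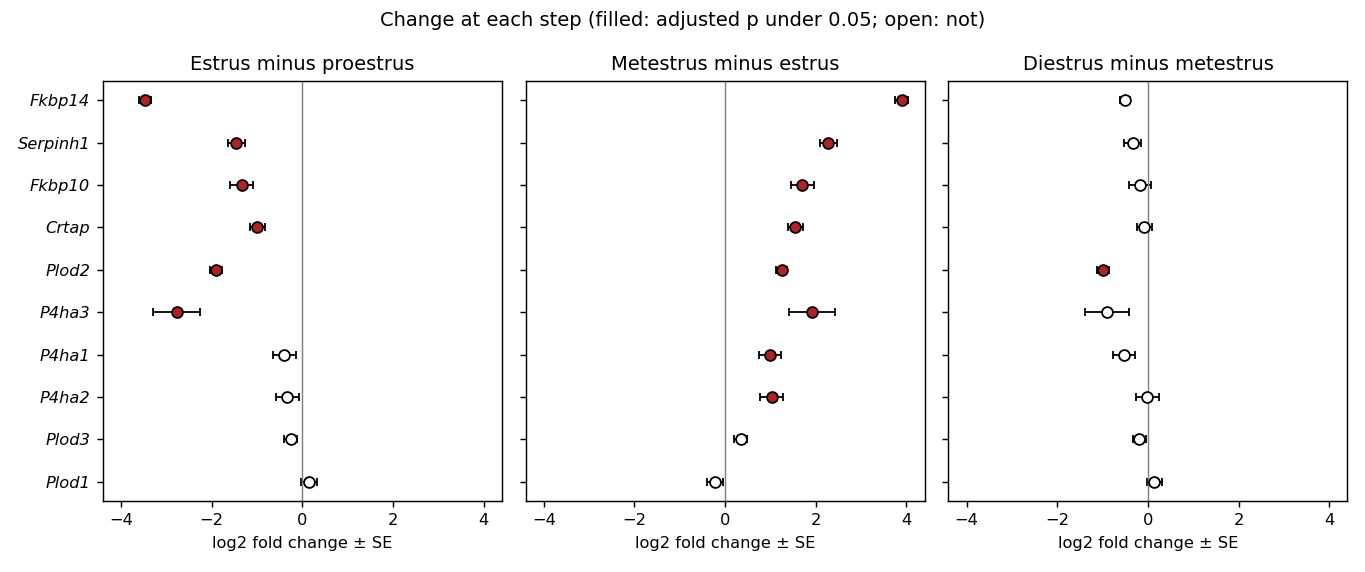
Log2 fold change ± SE (horizontal axes) of each gene from proestrus to estrus, from estrus to metestrus and from metestrus to diestrus, from 2 libraries a stage. Filled points passed an adjusted p of 0.05; 6 genes are filled to the left of 0 in the first panel and 8 to the right in the second, and Plod2 alone is filled in the third.

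Expression per length differed widely between the 10 genes. On the RPKM scale, which divides CPM by the exon length in kilobases, and averaged over the 8 libraries with the union of a gene's exons as its length, Serpinh1 was by far the highest at 577 RPKM. Crtap followed at 57.2, Fkbp10 at 37.2, P4ha1 at 27.8, Plod2 at 25.4, Plod1 at 24.7, Plod3 at 21.7, Fkbp14 at 13.2, P4ha2 at 9.54 and P4ha3 at 1.11 RPKM. The order was not fixed within the middle of this list: Plod2 ran from 11.4 to 48.6 RPKM over the libraries, and Plod1 (20.2 to 30.0) and Plod3 (17.6 to 25.9 RPKM) lay inside that range.

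Among the isomerases, Fkbp14 had the largest change of the 10 genes both into and out of estrus. The gene (ENSMUSG00000038074, chr6:54577604-54597308, minus strand; coordinates here and below are GRCm38) encodes an isomerase of the endoplasmic reticulum that acts on collagen, and its loss causes a kyphoscoliotic form of Ehlers-Danlos syndrome in people. Its levels were 62.0 and 67.7 CPM (proestrus), 5.55 and 6.19 CPM (estrus), 92.2 and 82.2 CPM (metestrus) and 58.8 and 64.0 CPM (diestrus). The estrus libraries lay far below all others and the metestrus libraries above all others. Fkbp14 ranked 5 of 18114 tested genes by its p across the stages (adjusted p = 0.000536). It was 11.0-fold lower in estrus than in proestrus (log2 fold change -3.46 ± 0.13 SE, adjusted p = 0.000845) and 14.8-fold higher in metestrus than in estrus (3.89 ± 0.13, adjusted p = 0.000277). Estrus was also lower than diestrus (-3.38 ± 0.13, adjusted p = 0.000649), and these 3 calls held under all 14 alternative settings. The difference between metestrus and proestrus, 0.43 ± 0.12, missed the threshold (adjusted p = 0.0506). It passed with DESeq2 size factors in edgeR (0.0476), a filter of 1 CPM in 2 libraries (0.0451) and the 4 libraries of the pair (0.0409). It also passed by DESeq2 (0.0287) and without either diestrus library. The difference between diestrus and metestrus, -0.51 ± 0.12, missed the threshold as well (adjusted p = 0.137). That difference passed by DESeq2 (0.0217) and without diestrus library 2. Fkbp14 shares 208 exonic bases with Plekha8 on the other strand, and the strand setting of the counting is not given in the sources used here. Plekha8 stood at 33.8 ± 3.96 (SD, n = 2), 18.2 ± 0.780, 35.7 ± 0.0883 and 29.7 ± 1.86 CPM in proestrus, estrus, metestrus and diestrus.

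Fkbp10 (ENSMUSG00000001555, chr11:100415697-100424824, plus strand) encodes FKBP65, an isomerase and chaperone that also assists the lysyl hydroxylase made from Plod2, and its mutation causes brittle bone disease. It read 101 and 128 CPM (proestrus), 51.9 and 38.6 CPM (estrus), 161 and 134 CPM (metestrus) and 104.8 and 155 CPM (diestrus). Only estrus was separate from all other stages, and the diestrus libraries differed 1.48-fold. The log2 change of Fkbp10 was -1.34 ± 0.25 into estrus (adjusted p = 0.0198) and 1.71 ± 0.25 into metestrus (adjusted p = 0.00443). Estrus was lower than diestrus (-1.52 ± 0.25, adjusted p = 0.00865). The fall into estrus was not called without proestrus library 1 (adjusted p = 0.0514), proestrus library 2 (0.106), estrus library 1 (0.0750) or estrus library 2 (0.109). Without estrus library 2, neither the difference from diestrus (0.0585) nor the change of Fkbp10 across the stages (0.0728, against 0.0112 with all libraries) passed. Fkbp10 shares 193 exonic bases with Nt5c3b on the other strand, which averaged 39.4 ± 4.65 (SD, n = 2), 39.7 ± 4.47, 67.1 ± 2.09 and 64.2 ± 2.86 CPM from proestrus to diestrus and so was not lowest in estrus alone. Within a library, Fkbp14 stood at 0.436 and 0.374 (proestrus), 0.0757 and 0.114 (estrus), 0.404 and 0.435 (metestrus) and 0.397 and 0.292 (diestrus) of Fkbp10 on the RPKM scale. The ratio was lowest in both estrus libraries. An exact permutation test over the 8 libraries gave p = 0.0667 for this ratio (one-sided in F, adjusted p = 0.102 over the 8 shares and ratios tested).

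Serpinh1 (ENSMUSG00000070436, chr7:99345376-99353239, minus strand) encodes HSP47, a chaperone specific to the collagen triple helix. Its levels were 1209 and 1271 CPM (proestrus), 413 and 493 CPM (estrus), 2504 and 1896 CPM (metestrus) and 1867 and 1617 CPM (diestrus). No library of another stage came near the estrus values, and the proestrus libraries lay below those of metestrus and diestrus. The level was 2.74-fold lower in estrus than in proestrus (log2 -1.45 ± 0.19, adjusted p = 0.00714) and 4.86-fold higher in metestrus than in estrus (2.28 ± 0.19, adjusted p = 0.00128). Estrus was lower than diestrus by -1.94 ± 0.19 (adjusted p = 0.00202). Serpinh1 was also higher in metestrus than in proestrus (0.83 ± 0.18, adjusted p = 0.0282). That call of Serpinh1 was lost without proestrus library 1 (0.167) or 2 (0.0896), estrus library 2 (0.0512), or metestrus library 1 (0.140) or 2 (0.0738). The fall into estrus missed the threshold without estrus library 1 (0.0583).

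Set against its main clients, Serpinh1 amounted to 26.3% and 22.6% of the summed RPKM of Col1a1, Col1a2 and Col3a1 in proestrus and to 17.3% and 34.8% in estrus. It amounted to 49.3% and 56.9% in metestrus and to 53.1% and 44.6% in diestrus. The proestrus and estrus libraries thus lay below those of the other stages, with estrus spread on both sides of proestrus. The exact permutation test gave p = 0.0762 (adjusted p = 0.102), so this difference in the Serpinh1 ratio did not pass. The size of the ratio depends on the length used: with the longest transcript of each gene its stage means were 16.1%, 16.3%, 35.5% and 31.8% from proestrus to diestrus, against 24.4%, 26.0%, 53.1% and 48.8% with the union of exons.

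Crtap (ENSMUSG00000032431, chr9:114375134-114390675, minus strand) encodes the cartilage-associated protein, which forms a complex with prolyl 3-hydroxylase and cyclophilin B that hydroxylates single prolines of fibrillar collagens. It read 88.7 and 97.4 CPM (proestrus), 47.5 and 45.8 CPM (estrus), 135 and 137 CPM (metestrus) and 108 and 150 CPM (diestrus). Estrus was lowest, and the 2 diestrus libraries stood on either side of metestrus. Crtap fell into estrus by 1.00 ± 0.16 on the log2 scale (adjusted p = 0.0142) and rose by 1.55 ± 0.17 to metestrus (adjusted p = 0.00212). It was lower in estrus than in diestrus (-1.47 ± 0.17, adjusted p = 0.00291). With proestrus library 1 (0.0515), proestrus library 2 (0.0868), estrus library 1 (0.0941) or estrus library 2 (0.0896) left out, the fall of Crtap into estrus was lost. Metestrus exceeded proestrus by 0.55 ± 0.16 without a call (adjusted p = 0.0619), which was gained without either diestrus library (0.00803 each). Without diestrus library 1, proestrus was also called lower than diestrus (0.00793, against 0.0813 with all libraries).

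The promoter windows below, the 250 bases before the RefSeq gene start (GRCm38.p6, minus strand, printed 5′ to 3′), are shown for 3 of these genes that moved together, and for Plod1, for which no change was called. Capitals mark, on either strand, ACGTG and GCGTG (the cores of hypoxia response elements), the GC box GGGCGG and TATAAA. Fkbp14 has 2 RefSeq starts.
Fkbp14 start 1, chr6:54597345-54597594: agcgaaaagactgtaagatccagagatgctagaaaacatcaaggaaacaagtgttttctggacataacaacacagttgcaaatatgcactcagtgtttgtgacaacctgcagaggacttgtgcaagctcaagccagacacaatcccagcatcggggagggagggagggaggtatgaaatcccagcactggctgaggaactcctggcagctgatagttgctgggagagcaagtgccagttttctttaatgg
Fkbp14 start 2, chr6:54593175-54593424: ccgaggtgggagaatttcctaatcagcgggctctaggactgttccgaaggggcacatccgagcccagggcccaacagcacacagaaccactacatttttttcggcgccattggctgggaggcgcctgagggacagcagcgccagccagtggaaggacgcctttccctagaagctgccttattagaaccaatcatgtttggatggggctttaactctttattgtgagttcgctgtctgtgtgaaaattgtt
Serpinh1, chr7:99353240-99353489: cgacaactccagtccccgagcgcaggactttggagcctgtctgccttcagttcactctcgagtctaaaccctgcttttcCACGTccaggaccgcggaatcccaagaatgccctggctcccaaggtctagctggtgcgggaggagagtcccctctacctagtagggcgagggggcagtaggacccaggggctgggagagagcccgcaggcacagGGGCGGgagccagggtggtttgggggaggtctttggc
Crtap, chr9:114390713-114390962: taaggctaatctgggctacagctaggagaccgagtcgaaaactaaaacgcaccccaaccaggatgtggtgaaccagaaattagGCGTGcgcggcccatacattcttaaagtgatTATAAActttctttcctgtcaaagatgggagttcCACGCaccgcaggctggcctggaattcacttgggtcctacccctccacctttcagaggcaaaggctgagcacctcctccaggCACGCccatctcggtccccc
Plod1, chr4:147936777-147937026: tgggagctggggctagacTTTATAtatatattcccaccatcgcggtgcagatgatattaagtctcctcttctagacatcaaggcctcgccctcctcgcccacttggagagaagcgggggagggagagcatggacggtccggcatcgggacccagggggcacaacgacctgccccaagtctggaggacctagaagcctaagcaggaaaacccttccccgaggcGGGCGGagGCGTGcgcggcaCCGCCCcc
Neither Fkbp14 window held a capitalised motif. The Serpinh1 window held the first of these cores on the opposite strand and a GC box. The Crtap window held the second core and TATAAA. The Plod1 window held that core and TATAAA, and GC boxes as well. The 4 motifs are short and common: of all 32851 RefSeq windows of this length, 16.6% held ACGTG, 28.2% GCGTG, 32.7% the GC box and 12.4% TATAAA. Of the 10 genes, 8 matched an entry, with 9 windows between them, and Plod2 and Fkbp10 did not. ACGTG occurred in 4 of the 9 windows (Plod3, P4ha1, P4ha2 and Serpinh1), GCGTG in 5 (Plod1, Plod3, P4ha1, P4ha2 and Crtap) and the GC box in 5 (Plod1, P4ha1, P4ha2, P4ha3 and Serpinh1). The endoplasmic reticulum stress element, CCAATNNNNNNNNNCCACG, and the estrogen response element, GGTCANNNTGACC, were found in 0.113% and 0.0639% of all windows and in 0 of the 9. Both cores and the GC box contain the pair CG. The 9 windows held 48.0% to 70.0% G and C and 2 to 24 CG pairs. In the 4 with ACGTG these were 55.6% to 70.0% and 11 to 24, against medians of 52.4% and 6 over all windows. The shares over all windows were not matched for this. These matches describe letters within the windows only.

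Of the 3 lysyl hydroxylases, Plod2 was called across the stages (adjusted p = 0.00106), and Plod1 and Plod3 were not. Plod2 (ENSMUSG00000032374, chr9:92542223-92608428, plus strand) encodes the enzyme that hydroxylates the telopeptide lysines, which direct the stable, hydroxylysine-derived cross-links. It stood at 232 and 262 CPM (proestrus), 61.4 and 70.4 CPM (estrus), 160 and 153 CPM (metestrus) and 75.3 and 82.4 CPM (diestrus). Its libraries formed 4 separate steps, with proestrus highest, metestrus next, and diestrus and estrus lowest. Plod2 fell 3.75-fold into estrus (log2 -1.91 ± 0.12, adjusted p = 0.00173), rose 2.38-fold to metestrus (1.25 ± 0.12, adjusted p = 0.00181) and was 3.13-fold higher in proestrus than in diestrus (1.65 ± 0.12, adjusted p = 0.00124). These calls of Plod2 held under all 14 alternative settings. Estrus and diestrus differed by -0.26 ± 0.12, which was not called (adjusted p = 0.167, 95% interval -0.55 to 0.031).

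Metestrus was lower than proestrus for Plod2 (-0.66 ± 0.12, adjusted p = 0.0171) and lower in diestrus than in metestrus (-0.99 ± 0.12, adjusted p = 0.0361). Of all tested genes, 10.3% were lower in metestrus than in proestrus. The first call was lost with proestrus library 1 (0.0704), proestrus library 2 (0.0987), metestrus library 1 (0.112) or metestrus library 2 (0.151) left out. The second was lost without either proestrus library (0.0767 each), estrus library 1 (0.0936) or 2 (0.0978), or metestrus library 1 (0.298) or 2 (0.287). It was also lost when only the 4 libraries of that pair were fitted (0.203). Plod2 shares 346 exonic bases with the antisense locus Gm38391, which read at most 2.22 CPM in any library.

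Plod1 (ENSMUSG00000019055, chr4:147909753-147936767, minus strand) encodes an enzyme for helical lysines whose loss also causes a kyphoscoliotic form of Ehlers-Danlos syndrome. Plod3 (ENSMUSG00000004846, chr5:136987019-136996648, plus strand) encodes an enzyme that also adds glucose to hydroxylysine sugars. Plod1 read 176 and 151 CPM (proestrus), 203 and 158 CPM (estrus), 172 and 137 CPM (metestrus) and 174 and 167 CPM (diestrus). All 4 stages overlapped. No change of Plod1 was called across the stages (adjusted p = 0.678), and the 95% interval of its estrus minus proestrus log2 difference ran from -0.27 to 0.56. Plod3 read 110 and 94.6 CPM (proestrus), 91.8 and 79.6 CPM (estrus), 117 and 101 CPM (metestrus) and 102 and 88.7 CPM (diestrus). Its estrus libraries were both below those of proestrus and metestrus but overlapped diestrus (adjusted p across the stages = 0.266, interval of estrus minus proestrus -0.60 to 0.09). Plod3 overlaps Znhit1 on the other strand and the small RNA gene Mir702 over 538 exonic bases, and Znhit1 stood at 27.5 to 36.1 CPM.

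As a share of the family's summed RPKM, Plod2 made up 46.1% and 52.9% (proestrus), 18.4% and 24.2% (estrus), 36.7% and 40.1% (metestrus) and 22.4% and 25.6% (diestrus). Plod1 made up 27.8% and 24.3%, then 48.6% and 43.2%, 31.4% and 28.5%, and 41.2% and 41.4% in the same order. The Plod2 share was thus highest in proestrus and the Plod1 share highest in estrus, and the Plod1 shares of the 4 stages did not overlap. Plod3 took 22.8% to 26.1% in proestrus and 31.5% to 36.4% in the other 6 libraries. The exact permutation tests gave p = 0.00952 for Plod1, the smallest that this design allows, and 0.0190 for Plod2 and for Plod3. After adjustment over the 8 shares and ratios each stood at 0.0508, above the threshold of 0.05. Without diestrus library 1 the adjusted p for each of Plod1, Plod2 and Plod3 was 0.0457, and without estrus library 2 it was 0.0381 for Plod1 and Plod2.

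**Figure D3:**
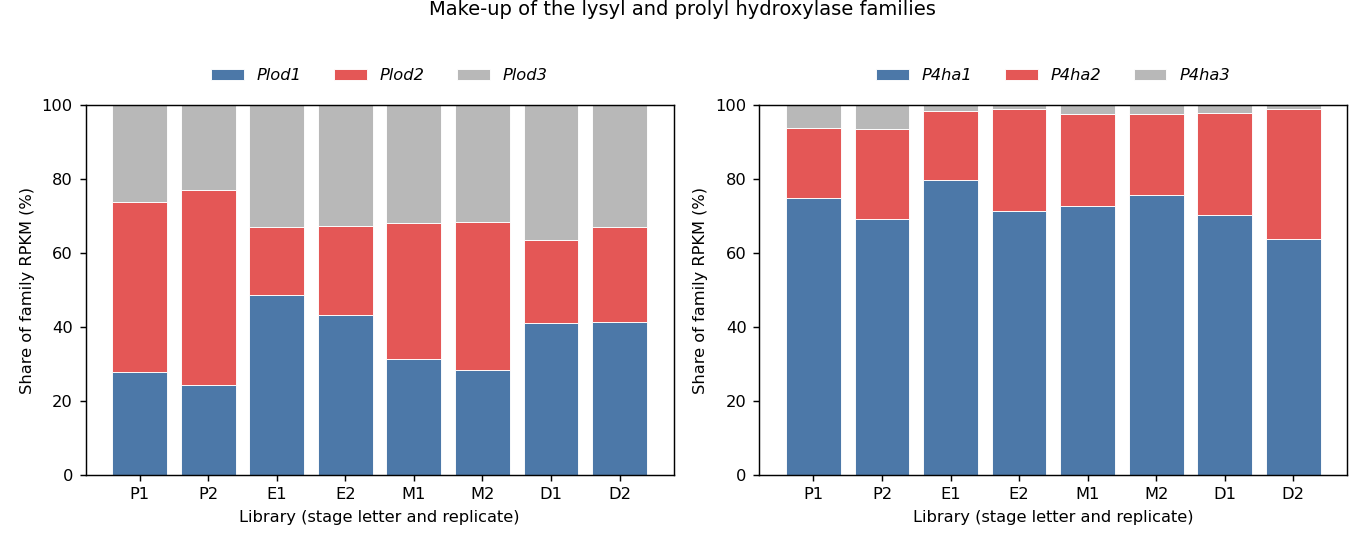
Share of each gene in the summed RPKM of its family (vertical axes, percent) in each of the 8 libraries, named by stage letter and replicate, for Plod1, Plod2 and Plod3 and for P4ha1, P4ha2 and P4ha3. Plod2 takes 46.1% and 52.9% in proestrus against 18.4% and 24.2% in estrus, and P4ha1 takes 63.8% to 79.9% of the second family with the union of exons as length.

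The prolyl 4-hydroxylase subunits make the hydroxyproline that stabilises the triple helix, each pairing with the common subunit made from P4hb. P4ha1 (ENSMUSG00000019916, chr10:59323296-59373304, plus strand) read 122 and 89.6 CPM (proestrus), 81.9 and 79.3 CPM (estrus), 174 and 146 CPM (metestrus) and 136 and 85.5 CPM (diestrus). Estrus was lowest and metestrus highest in both libraries, and the diestrus libraries differed 1.59-fold. The rise of P4ha1 into metestrus measured 0.99 ± 0.25 (log2, adjusted p = 0.0232). It was lost with estrus library 1 (0.0941), estrus library 2 (0.1046), metestrus library 1 (0.0986) or metestrus library 2 (0.0622) left out. The fall into estrus, -0.39 ± 0.25, was not called (adjusted p = 0.310, interval -0.99 to 0.20). Across the stages P4ha1 missed the threshold (adjusted p = 0.0686) and passed it without diestrus library 1 (0.0107) or 2 (0.0118). Without diestrus library 2, P4ha1 was also called lower in estrus than in diestrus (0.0375). Without diestrus library 1 (0.0357) or 2 (0.0361) it was called higher in metestrus than in proestrus.

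P4ha2 (ENSMUSG00000018906, chr11:54100095-54131665, plus strand), the second catalytic subunit, read 46.8 and 47.9 CPM (proestrus), 29.2 and 46.3 CPM (estrus), 89.5 and 64.2 CPM (metestrus) and 81.1 and 71.4 CPM (diestrus). All metestrus and diestrus libraries lay above all proestrus and estrus libraries, and the estrus pair differed 1.59-fold. P4ha2 rose from estrus to metestrus by 1.03 ± 0.25 (adjusted p = 0.0200) and was lower in estrus than in diestrus (-1.02 ± 0.25, adjusted p = 0.0288). The first call of P4ha2 was lost without estrus library 1 (0.0834) or metestrus library 1 (0.102). The second was lost without proestrus library 2 (0.0512), estrus library 1 (0.123) or diestrus library 1 (0.0564), and in a fit of the 4 libraries of the pair (0.0751). The change of P4ha2 across the stages (adjusted p = 0.0345) was lost with proestrus library 1 (0.0789) or 2 (0.0752) left out, and likewise without estrus library 1 (0.0713) or metestrus library 1 (0.0769) or 2 (0.0520).

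P4ha3 (ENSMUSG00000051048, chr7:100285520-100319699, plus strand), the least expressed subunit per length, read 7.74 and 6.20 CPM (proestrus), 1.10 and 0.929 CPM (estrus), 4.46 and 3.25 CPM (metestrus) and 3.06 and 1.06 CPM (diestrus), from 18 to 151 counts a library. Proestrus stood above all other stages, and estrus overlapped only diestrus library 2, whose level was 2.89-fold below that of library 1. P4ha3 fell into estrus by 2.77 ± 0.52 on the log2 scale (adjusted p = 0.0201), rose by 1.92 ± 0.51 to metestrus (adjusted p = 0.0279) and was higher in proestrus than in diestrus (1.75 ± 0.49, adjusted p = 0.0457). Between proestrus and diestrus, 2 of the 10 genes were thus called in either direction, P4ha3 and Plod2, both higher in proestrus. Of all 18114 tested genes, 4050 were called in either direction, a similar share, so the 10 genes did not stand out in this pair. The fall was lost with proestrus library 1 (0.0738), proestrus library 2 (0.0751), estrus library 1 (0.110) or estrus library 2 (0.113) left out, and the rise without estrus library 1 (0.106) or 2 (0.127) or metestrus library 1 (0.113) or 2 (0.0723). The difference from diestrus was lost in a fit of its 4 libraries (0.136) and without any 1 library other than diestrus library 1, with adjusted p between 0.0528 and 0.187. Across the stages (adjusted p = 0.0224) P4ha3 was lost when any of the 6 libraries outside diestrus was left out, with adjusted p between 0.0545 and 0.0893. Without diestrus library 2, P4ha3 was called lower in estrus than in diestrus (0.0228).

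With the union of exons as length, P4ha1 made up 63.8% to 79.9% of the summed RPKM of its family, and its share did not differ between the stages (exact permutation test, p = 0.400) beyond the spread of the libraries. The P4ha2 share averaged 21.7%, 23.1%, 23.3% and 31.4% from proestrus to diestrus (exact p = 0.324, adjusted p = 0.370). With the longest transcript as length, the P4ha1 share averaged 58.4%, 61.4%, 59.9% and 51.0% and the P4ha2 share 35.1%, 37.3%, 37.7% and 47.5% in the same order, so the balance of P4ha1 and P4ha2 rests on the length chosen. P4ha3 took 6.22% and 6.29% (proestrus), 1.41% and 1.10% (estrus), 2.45% and 2.22% (metestrus) and 2.07% and 1.04% (diestrus). Both proestrus libraries were above the other 6 for P4ha3 (exact permutation test, p = 0.0476, adjusted p = 0.0952, and 0.0457 without diestrus library 1).

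The remaining pairs of stages add little to this order. Estrus was lower than diestrus for 5 of the 10 genes (Fkbp14, Serpinh1, Crtap, Fkbp10 and P4ha2), where 9.97% of tested genes were lower. Metestrus against proestrus gave 1 higher gene, Serpinh1 (6.68% of tested genes higher), and 1 lower gene, Plod2 (10.3% of tested genes lower). DESeq2 called 4 higher there, namely Serpinh1, Crtap (0.0220), Fkbp14 (0.0287) and P4ha2 (0.0446). Over all genes DESeq2 called 4083 in either direction in that pair. These pairs share libraries with the steps above and are not separate evidence.

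Over the 8 libraries, the log2 CPM of Serpinh1, Fkbp10, Fkbp14 and Crtap ran closely together, with Pearson correlations of 0.924 to 0.967 for the pairs among them. Plod2 ran closest to P4ha3 (0.897), and Plod1 correlated at -0.438 to 0.0947 with the other 9. These values are descriptions over 8 libraries that share the stages and their scaling. Each of 3 members was compared with 11831 other tested genes with a mean of 5 CPM or more, predicted genes with clone-like names being left out. Those most alike to Fkbp14 were Lman1, a cargo receptor of the endoplasmic reticulum (r = 0.990), Samd5 (0.988) and Irf3 (0.987). A correlation takes no account of the size of a change. Lman1 averaged 213, 125, 246 and 216 CPM from proestrus to diestrus, and Samd5 16.5, 2.71, 15.9 and 14.1 CPM. Irf3 averaged 59.6, 51.7, 59.6 and 59.6 CPM, against 64.9, 5.87, 87.2 and 61.4 CPM for Fkbp14. Those most alike to Plod2 were Psmc3 (0.987), Flrt2 (0.983) and the growth factor gene Fgf2 (0.982). Psmc3 averaged 197, 139, 176 and 149 CPM, Flrt2 93.8, 39.3, 63.8 and 37.6 CPM, and Fgf2 43.6, 14.3, 32.2 and 17.2 CPM. Those most alike to Serpinh1 were Pja1 (0.996), Polrmt (0.992) and Qtrt1 (0.992). Pja1 averaged 86.4, 55.0, 111 and 95.8 CPM, Polrmt 35.4, 27.9, 43.7 and 40.8 CPM, and Qtrt1 22.6, 16.5, 28.5 and 25.2 CPM.

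The other genes of the pathway were read from 6 lists. For comparison with the counts of every list, 6.94% of all tested genes fell and 8.12% rose from proestrus to estrus. From estrus to metestrus 16.7% rose and 19.5% fell. The median log2 fold changes of all tested genes were 0.0068 and -0.046. Of 16 partners that hydroxylate or fold collagen beside the 10 genes, 8 fell and 1 rose from proestrus to estrus, and 8 rose and 1 fell from estrus to metestrus, with median log2 fold changes of -0.63 and 0.48. P3h1, the prolyl 3-hydroxylase that binds Crtap, averaged 69.1 ± 9.46 (SD, n = 2), 26.5 ± 0.666, 109 ± 16.6 and 91.4 ± 24.6 CPM from proestrus to diestrus. It fell by 1.38 ± 0.21 on the log2 scale and then rose by 2.04 ± 0.22. P3h4, a partner of the Plod1 enzyme, fell and rose likewise (-0.79 and 1.39), as did Creb3l1, which encodes a transcription factor of collagen secretion (-1.41 and 1.87). Fkbp9 averaged 269, 180, 346 and 390 CPM in the same order. Fkbp11 averaged 33.1 ± 0.127, 9.43 ± 0.462, 33.7 ± 4.35 and 45.6 ± 29.6 CPM, and its diestrus libraries stood at 66.5 and 24.7 CPM, on either side of proestrus and metestrus. The member that moved the other way was P3h2, at 14.9 ± 0.594, 24.3 ± 3.67, 12.1 ± 1.11 and 18.5 ± 2.91 CPM. It was higher in estrus than in proestrus (0.70 ± 0.18, adjusted p = 0.0484) and fell to metestrus (-1.01 ± 0.18). The higher call of P3h2 in estrus was lost with DESeq2 size factors, with no filter, with the replicate number as a block and in each fit lacking 1 of the 6 libraries outside diestrus, all of which left 0 partners higher. P4hb, outside the naming rule and named here for its role after its values were seen, averaged 1535 ± 138, 975 ± 123, 1218 ± 96.1 and 1188 ± 148 CPM. The count of 8 lower partners fell to 2 and 0 without proestrus library 1 or 2, to 1 without either estrus library and to 3 without either metestrus library. The count of 8 higher in metestrus was 4 without any 1 library of estrus or metestrus.

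**Figure D4:**
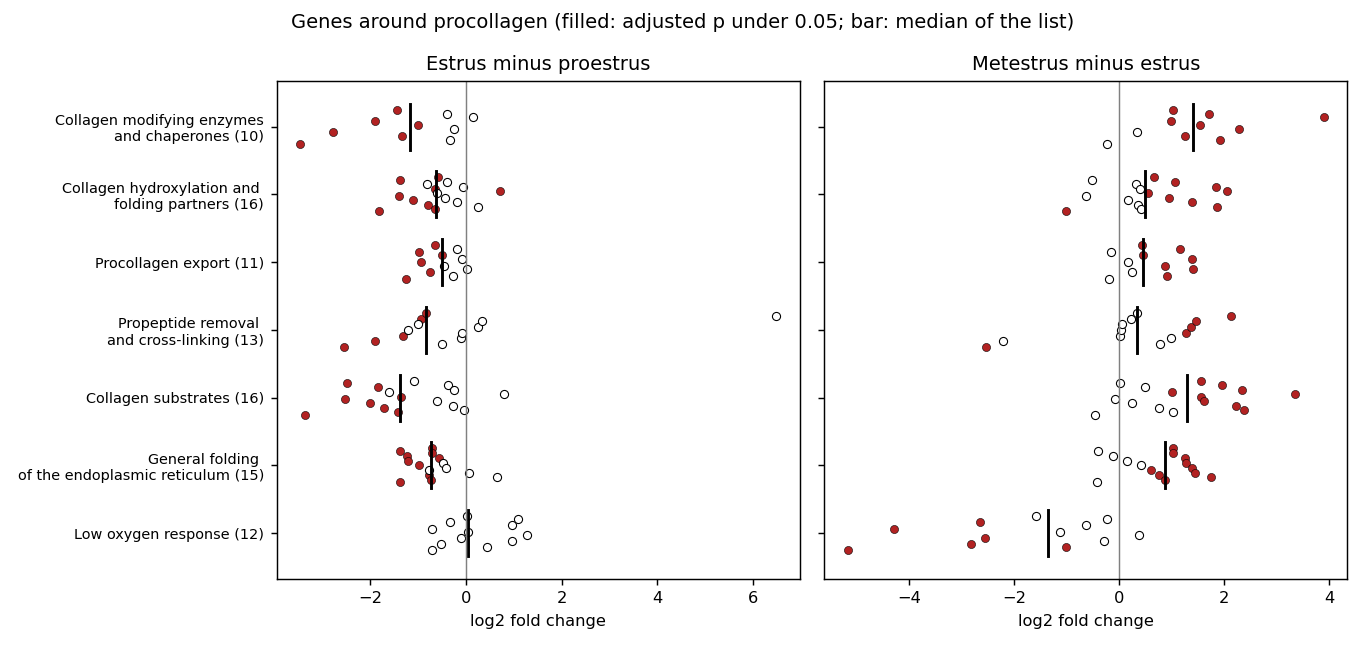
Log2 fold change (horizontal axes) of every tested gene of the 10 and of the 6 pathway lists from proestrus to estrus and from estrus to metestrus. Each dot is a gene, filled where the adjusted p was under 0.05, and each bar is a list's median; the rightmost open dot is Tll2, with no count in either proestrus library, so its fitted fold change is no bound.

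Of 11 genes of procollagen export, 6 fell into estrus and 7 rose to metestrus, with 0 in the opposite directions by edgeR (0 also at an unadjusted p under 0.05 and by DESeq2). Sec23a, an inner coat protein of export vesicles, averaged 88.2 ± 2.35 (SD, n = 2), 44.5 ± 1.35, 117 ± 2.59 and 87.3 ± 3.04 CPM from proestrus to diestrus. It fell by 0.99 ± 0.09 on the log2 scale (adjusted p = 0.00356) and rose by 1.39 ± 0.09 (adjusted p = 0.000863). Sec24d, its partner in the coat, averaged 202, 84.8, 226 and 181 CPM in the same order. Sar1a (254, 151, 275 and 229 CPM), Sec31a (321, 204, 381 and 313 CPM) and Sec13 (138, 71.8, 161 and 109 CPM) also had their lowest mean in estrus. Sar1b, at 57.3, 47.7, 41.4 and 35.5 CPM, did not. The fall was called for 2 of the 11 without proestrus library 2, estrus library 1 or estrus library 2.

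Of 16 collagen chains, the substrates, 8 fell into estrus and 0 rose by edgeR (1 at an unadjusted p under 0.05 and 1 by DESeq2), and 9 rose to metestrus with 0 lower (0 unadjusted and by DESeq2). Their median log2 fold changes were -1.38 and 1.29. Col1a1 stood at 5039 and 6133 CPM (proestrus), 2036 and 1080 CPM (estrus), 5482 and 3726 CPM (metestrus) and 3377 and 3188 CPM (diestrus). It fell by 1.84 ± 0.34 on the log2 scale (adjusted p = 0.0185) and rose by 1.56 ± 0.33 (adjusted p = 0.0138). Col1a2 fell into estrus (-1.35 ± 0.29, adjusted p = 0.0279) without a called rise, and Col3a1 rose to metestrus (1.00 ± 0.32, adjusted p = 0.0487) without a called fall. The chains of collagen VI, which forms beaded filaments around cells, were among those lowest in estrus. Col6a2 averaged 5007, 870, 4089 and 2717 CPM, Col6a1 4673, 1163, 3552 and 2498 CPM, and Col6a3 1990, 193, 1972 and 690 CPM from proestrus to diestrus. Col5a1 averaged 1017, 181, 936 and 517 CPM and Col11a1 14.9, 4.54, 22.9 and 34.4 CPM. Col12a1 had its lowest mean in proestrus and its highest in diestrus (21.5, 37.4, 27.0 and 81.3 CPM). The 8 falls were 4 without proestrus library 1, proestrus library 2 or estrus library 2, and the 9 rises were 5 without estrus library 2.

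Of 13 genes that trim propeptides or cross-link collagen, 5 fell into estrus and 0 rose by edgeR (1 at an unadjusted p under 0.05 and 0 by DESeq2). To metestrus 4 rose and 1 fell, where 16.7% of all tested genes rose and 19.5% fell. Lox, the lysyl oxidase that acts on the lysines and hydroxylysines left by the Plod enzymes, went its own way. It stood at 426 and 416 CPM (proestrus), 554 and 506 CPM (estrus), 99.4 and 84.2 CPM (metestrus) and 124 and 62.6 CPM (diestrus). Estrus was the highest stage for Lox, and its fall to metestrus measured -2.53 ± 0.31 (adjusted p = 0.00288). Loxl1, a related oxidase, averaged 209, 109, 265 and 224 CPM in the same order. Pcolce2, an enhancer of propeptide removal, averaged 31.9, 5.43, 10.7 and 6.02 CPM, and the propeptide proteases Adamts2 and Adamts14 averaged 456, 257, 261 and 182 CPM and 15.2, 4.06, 17.7 and 14.7 CPM. Tll2, another protease, stayed at or below a mean of 0.615 CPM. The 5 falls were 0 without any 1 library of proestrus or estrus and 2 without either metestrus library. The 4 rises were 1 without estrus library 1, estrus library 2 or metestrus library 2, and 2 without metestrus library 1.

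Of 15 general folding factors of the endoplasmic reticulum, which serve all secreted proteins, 10 fell into estrus and 10 rose to metestrus, with 0 in the opposite directions by edgeR (0 also at an unadjusted p under 0.05 and by DESeq2). Their median log2 fold changes were -0.73 and 0.88. Dnajb11, a co-chaperone, averaged 146 ± 6.44 (SD, n = 2), 88.6 ± 7.08, 179 ± 1.61 and 111 ± 2.66 CPM from proestrus to diestrus, and Hsp90b1, a chaperone, 839 ± 18.2, 511 ± 89.0, 1043 ± 18.8 and 847 ± 31.2 CPM. Creld2 (115, 44.3, 148 and 84.8 CPM), Canx (486, 326, 555 and 445 CPM), Pdia4 (350.3, 206, 379 and 291 CPM) and Hyou1 (339.9, 171, 445 and 297 CPM) had the same order of proestrus, estrus and metestrus. The 10 falls were 0 without any 1 library of proestrus or estrus and 3 without either metestrus library. The 10 rises were 4 without estrus library 1 and 6 without estrus library 2 or metestrus library 1.

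The last list held 12 genes of the low oxygen response, a pathway known to raise Plod2, P4ha1 and P4ha2 in other settings. Of the 12, 0 were called between proestrus and estrus by edgeR (1 higher and 1 lower at an unadjusted p under 0.05), and DESeq2 called 1 higher and 1 lower. Leaving out 1 library gave up to 2 higher (without either diestrus library) and up to 1 lower. From estrus to metestrus 6 fell and 0 rose, with 0 higher at an unadjusted p under 0.05 and 0 by DESeq2. Egln3, an oxygen sensor, stood at 253 and 169 CPM (proestrus), 494 and 327 CPM (estrus), 11.7 and 11.2 CPM (metestrus) and 7.38 and 5.60 CPM (diestrus). Its fall to metestrus was -5.17 ± 0.32 (adjusted p = 0.000821). Ankrd37 (13.6, 13.7, 0.697 and 0.856 CPM), Car9 (19.7, 13.7, 1.92 and 1.24 CPM), Aldoa (927, 862, 426 and 470.1 CPM), Ldha (1202, 729, 618 and 381 CPM) and Pgk1 (383, 305, 196 and 155 CPM) also had higher means in proestrus and estrus than in metestrus and diestrus. Of the whole list 9 of 12 had this order. The share of all tested genes with this order was not counted, so the 9 cannot be read as particular to the list. The other 3, named after their values were seen, were Vegfa (81.5, 110.4, 143, 105.1 CPM), Adm (26.3, 51.3, 41.8, 21.96 CPM) and Ndrg1 (112, 239, 38.1, 113 CPM). The 6 falls were 2 without estrus library 1, metestrus library 1 or metestrus library 2.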

How the data were processed

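RNA-seq of 8 uterus samples was deposited by the authors as a table of raw read counts per gene. Per the submitters' processing notes, STAR, featureCounts and Subread were used with GRCm38 (mm10), without a version or a strand setting. Of 52308 gene IDs, 52058 matched GENCODE M21. Counts were tested with edgeR 4.0.16 (R 4.3.3): TMM factors (0.898 to 1.11), filterByExpr (18114 genes kept, 34194 not tested), 1 coefficient per stage, quasi-likelihood F tests across the stages and for 6 pairs, Benjamini-Hochberg adjustment over all genes tested. The threshold was 0.05, and all libraries shared 1 estimate of spread (4 residual degrees of freedom). CPM use TMM-scaled totals, and RPKM divide by the union of exons. The procedure was tested on simulated data. DESeq2 1.42.0 and other settings were alternatives. Shares were compared by exact permutation, one-sided in F. Within-stage libraries differed beyond sampling noise (chi-square per degree of freedom 15.7 to 33.5 in proestrus, estrus and metestrus and 95.4 in diestrus). The labels' replicate numbers were taken as names only.

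The 10 genes and all lists were chosen with earlier results of these data known. Named besides them are up to 6 genes per list with the smallest p across the stages, the main substrates Col1a1, Col1a2 and Col3a1, and the 3 genes most alike to each of 3 members. Promoters are from RefSeq (GRCm38.p6).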

Additional observations from a re-analysis of the deposited data

How the results depend on the processing

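Of 60 differences between stages for the 10 genes, 24 were called, and 11 of those held under all 14 alternatives (Plod2 for estrus against proestrus, metestrus against estrus and proestrus against diestrus; Serpinh1 and Crtap for metestrus against estrus and estrus against diestrus; Fkbp10 for metestrus against estrus; Fkbp14 for all 3 differences from estrus). None of the 24 reversed. The 2 libraries a stage limit every call, and a fit that leaves 1 library in a stage assumes that it varies like the other groups. Causes were not tested beyond the fewer libraries of such fits.

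Leaving out 1 library each time, the number of genes lower in estrus than in proestrus (6) ranged from 2 to 6 and that higher in metestrus than in estrus (8) from 5 to 8. The number lower in diestrus than in metestrus (1) ranged from 0 to 2, and was 2 by DESeq2 and 0 from the 4 libraries of the pair. The number higher in proestrus than in diestrus (2) ranged from 1 to 2, and was 1 from the 4 libraries of the pair. The number lower there (0) ranged from 0 to 1, and was 2 by DESeq2. The number higher in metestrus than in proestrus (1) ranged from 0 to 4, and was 2 with DESeq2 size factors, 4 by DESeq2, 2 with a filter of 1 CPM in 2 libraries and 4 from the 4 libraries of the pair; that lower (1) ranged from 0 to 1. Over the 6 lists together, the number higher in estrus than in proestrus (1) ranged from 0 to 4, and was 0 with DESeq2 size factors, 3 by DESeq2, 3 with no filter, 2 with the replicate block and 3 from the 4 libraries of the pair; that lower (37) ranged from 6 to 46. The number higher in metestrus than in estrus (38) ranged from 21 to 45 and that lower (8) from 3 to 9, and was 12 from the 4 libraries of the pair.

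The adjusted p of the Plod1 and Plod2 shares (0.0508) ranged from 0.0381 to 0.127, that of the Plod3 share (0.0508) from 0.0457 to 0.127, that of the P4ha3 share (0.0952) from 0.0457 to 0.133 and that of the Fkbp14 to Fkbp10 ratio (0.102) from 0.0457 to 0.168. With the length of the longest transcript it was 0.0381 for the Plod1 and Plod3 shares and the same as before for the other shares and ratios.

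The replicate numbers are a shared number only, since deviations from the stage means correlated at -0.0926 to 0.145 between same-numbered libraries. With the replicate block the 10 genes gave the same 7 calls in number across the stages, P4ha1 entering (adjusted p = 0.0245) and P4ha2 leaving (0.0553), and Plod3 was called higher in metestrus than in estrus (0.0261). DESeq2 also called P4ha1 across the stages (0.00750), Serpinh1 (0.0416) and P4ha2 (0.0498) lower in proestrus than in diestrus, and Fkbp14 lower in diestrus than in metestrus (0.0217).

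Signs changed 15 times, all in differences that were not called. Leaving out 1 library each time, the log2 difference of Plod1 ranged from -0.053 to 0.31 (estrus minus proestrus), -0.047 to 0.30 (diestrus minus metestrus), -0.18 to 0.035 (proestrus minus diestrus), -0.12 to 0.25 (estrus minus diestrus) and -0.24 to 0.11 (metestrus minus proestrus). Proestrus minus diestrus ranged from -0.018 to 0.19 for Plod3, -0.36 to 0.29 for P4ha1 and -0.45 to 0.13 for Fkbp10. Diestrus minus metestrus ranged from -0.26 to 0.23 for P4ha2 (0.000565 from the 4 libraries of the pair), -0.53 to 0.059 for Fkbp10 and -0.37 to 0.13 for Crtap.

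Over all genes, the 92 calls between diestrus and metestrus were 992 by DESeq2, 451 with no filter, 61 with the replicate block and 0 from the 4 libraries of the pair. They were 2024 without diestrus library 2, 266 without diestrus library 1 and 0 to 6 without any 1 library of the other stages. DESeq2 size factors moved the median of all genes by at most 0.018 on the log2 scale.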
